A study of Mus musculus with 11 samples.

Results

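Megakaryocytes are the large polyploid cells of the marrow that shed platelets into the sinusoids, and 9 genes that mark them and their platelets are described here in whole distal tibiae. The genes were picked by symbol as established markers of the lineage, with earlier results of these data known, and make up 9 of the 22600 genes in the deposited count table. They are Gp1ba, Gp1bb, Gp9 and Gp5, which encode the chains of the platelet receptor for von Willebrand factor; Vwf, which encodes that ligand; Gp6, the platelet collagen receptor; Itga2b, the alpha chain (CD41) of the fibrinogen receptor; and Pf4 and Ppbp, the alpha-granule chemokines CXCL4 and CXCL7. In the first steps of clot formation, von Willebrand factor bound to exposed collagen holds platelets through this receptor complex, Gp6 signals inward from collagen, and the fibrinogen receptor then bridges platelets to each other. Megakaryocytes make the same proteins while they mature, so their transcripts report on the lineage in marrow. Vwf is also made by endothelial cells, which line the vessels of bone.

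The study asked how the loss of bone marrow adipocytes alters the surrounding bone and marrow. Distal tibiae came from 4 Control mice, labelled BMAd-WT, and 7 BMAd-DTA mice, all aged 24 weeks, of a mixed C57BL6/SJL background and fed ad libitum. Every mouse, Controls included, carried Osterix-FLPo and FAC, a Cre sequence in the 3′ end of the endogenous Adipoq gene that is switched on by the FLPo recombinase. BMAd-DTA mice also carried the diphtheria toxin A chain behind a lox-flanked stop in Rosa26. The Cre acts in marrow adipocytes and also in a small subset of adipocyte-lineage stromal precursors (MALPs), and it recombines less completely in young mice, which limits the model. Each library was made from 1 mouse, from frozen whole bone ground to powder. Libraries hold 16969529 to 18637663 counted read pairs over the 22600 genes of the deposited count table.

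Promoter windows from RefSeq on GRCm38.p6 (the mm10 build), spanning the bases just before and after each transcription start, were matched for 8 of the 9 genes; Vwf had no entry. They were searched on both strands for AGATAA, a form of the site bound by GATA factors such as Gata1, and for GGAAG, a core of the sites bound by ETS factors such as Fli1, because these families direct the megakaryocyte programme. AGATAA was found in 3 of the 8 promoters, those of Gp5, Gp6 and Pf4, and in 11.2% of 32851 mouse promoters of the same length. GGAAG was found in 8 of 8 against 71.4% of all, so its presence separates these genes little from others. The matches are letter matches, not measured binding. Windows of 30 bases are shown 5′ to 3′ on the strand of the gene, with 1 match each in capitals (GGAAG reads as CTTCC and AGATAA as TTATCT where the match is on the opposite strand). They are from Gp9 at chr6:87778042-87778071 (plus strand), Gp1ba at chr11:70639094-70639123 (plus), Itga2b at chr11:102469902-102469931 (minus), Ppbp at chr5:90768456-90768485 (plus), Gp5 at chr16:30310841-30310870 (minus) and Gp6 at chr7:4397871-4397900 (minus).
Gp9: tttcaccatttcCTTCCtcctgtcaggcag
Gp1ba: caactctatctcCTTCCtgctcttgggctg
Itga2b: tggagaggaaggGGAAGcagtgacttccag
Ppbp: cactcacttcccCTTCCccacctcttcggc
Gp5: ctggtaaggtctTTATCTtgaggatgcaag
Gp6: gctggcaagaagAGATAAgtggtggcttta
The match shown is 1 of several in most of these promoters. With positions counted from the start and negative upstream, GGAAG cores began at -240 and -16 in Gp9, at -164, -16 and 45 in Gp1ba, at -124, -42, -36 and -25 in Itga2b and at -56 and -50 in Ppbp. AGATAA matches began at -93 and -77 in Gp5, of which the latter is shown, and at -144 in Gp6.

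Transcripts of 8 of the 9 genes were well counted in these bones, and no difference between BMAd-DTA and Control tibiae was detected for any of these 8; Gp1bb had too few counts to test. The fitted values of the 8 genes were all below Control (8 of 8, where 49.6% of all genes had a fitted value below 0), by a median of -0.17 on the log2 scale against 0.0018 over all 16496 genes tested. The mice within each genotype differed by more than that, and they did so for all of these genes together. The 8 signs are therefore not independent of each other, and without Control replicate 4 only 5 of the 8 were below 0. By edgeR's quasi-likelihood test, adjusted by Benjamini-Hochberg over all genes, 0 of the 8 passed an adjusted p of 0.05, where 0.0788% of all genes did (0.0727% higher and 0.00606% lower). At an unadjusted p under 0.05 the count was also 0, against 16.4% of all genes. DESeq2, which called 5.42% of its genes, and limma-voom called 0 of them as well. Levels in whole bone do not separate the number of megakaryocytes from the amount of these RNAs in each.

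The plot of fold changes shows each fitted change with its interval.

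**Figure D1:**
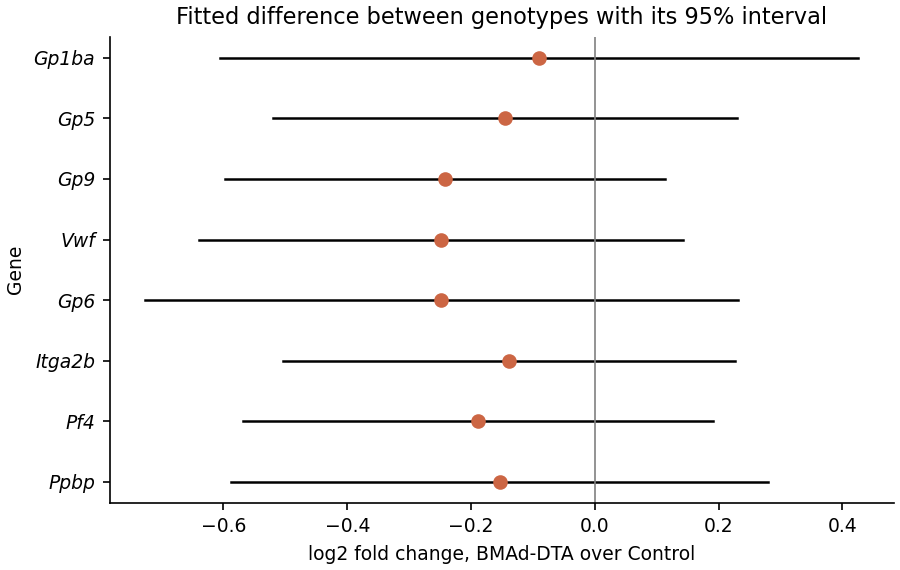
Log2 fold change of the 8 tested genes, BMAd-DTA against Control (horizontal axis, points with 95% confidence intervals from edgeR's quasi-likelihood fit). All 8 points lie between -0.25 and -0.090 and every interval spans 0.

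The ligand-binding subunit of the von Willebrand factor receptor, Gp1ba (GRCm38 chromosome 11, bases 70639122 to 70642036, plus strand), was at 154, 117, 70.0 and 183 CPM, the counts scaled to a common library size, in Control replicates 1 to 4. In BMAd-DTA tibiae it ran from 73.3 to 168 with a median of 122 CPM. The groups overlapped fully, with no BMAd-DTA mouse below all Controls, and the lowest Gp1ba of the 11 mice was in a Control. The log2 fold change of Gp1ba was -0.09 ± 0.24 (SE), with an adjusted p of 0.895 by edgeR's quasi-likelihood test and an exact two-sided permutation p of 0.888.

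Gp9 (chromosome 6, 87778072 to 87779768, plus strand), the small subunit needed to bring the complex to the surface, was at 97.1, 81.2, 74.9 and 98.8 CPM in Controls. It ran from 50.3 through a median of 79.2 to 98.7 CPM in BMAd-DTA mice. Of the 7 BMAd-DTA mice 3 were below every Control, the most for any of these genes, and the other 4 lay within the Control range. Its log2 fold change was -0.24 ± 0.16 (SE), with an adjusted p of 0.501 by edgeR's quasi-likelihood test and an exact permutation p of 0.203, the smallest among the 8 genes. With 4 mice against 7 the exact test has 330 splits and could reach 0.00303.

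Gp5 (chromosome 16, 30307685 to 30310779, minus strand), the chain of the complex that thrombin cleaves, was at 136, 123, 91.5 and 166 CPM in Controls. BMAd-DTA values ran from 78.8 to 136, with a median of 126.5 CPM. The BMAd-DTA median lay inside the Control range, and 2 of the 7 mice lay below it. Gp5 differed by -0.15 ± 0.17 (SE) on the log2 scale, with an adjusted p of 0.737 by edgeR's quasi-likelihood test.

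Gp1bb, which is disulfide-linked to Gp1ba and without which the complex is unstable, was almost uncounted. Its 4 Control libraries held 2, 2, 1 and 15 counts, and its 7 BMAd-DTA libraries held 0 to 10 with a median of 3, totals of 20 and 31. At 0 to 0.778 CPM it stood far below its partner chains, it did not pass the filter on low counts, and no fold change is given. The gene lies on chromosome 16, minus strand, at 18620317 to 18622403, and 1902 of its 2087 exon bases in GENCODE M21 are also exon of Sept5, a septin gene transcribed from the same strand just upstream. Together with the overlapping gene Gm49601, 92.9% of Gp1bb exon bases were shared and 149 were not. STAR's gene counting sets aside a read pair that overlaps more than 1 gene, and strand does not separate genes on the same strand. The count of Gp1bb is therefore no measure of its abundance here, and the share of its pairs that was set aside was not tested. The other 8 genes share 0 exon bases with a gene on their strand. Opposite-strand counts of Gp1bb were 0.

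Sept5 itself was at 30.9 ± 4.0 CPM (SD, n = 4) in Controls, and BMAd-DTA tibiae held 30.8 ± 6.54 CPM (SD, n = 7). Its log2 difference was -0.0047 ± 0.15 (SE; adjusted p = 0.993 by edgeR's quasi-likelihood test). Of the 3915 exon bases of Sept5, 3277 (83.7%) are shared on its strand with Gp1bb or Gm49601, which leaves 638. The pairs counted for Sept5 come from the part outside both genes. They are no full measure of Sept5 and say nothing of Gp1bb's own level. The map of the shared exons and the counts per gene are plotted together.

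**Figure D2:**
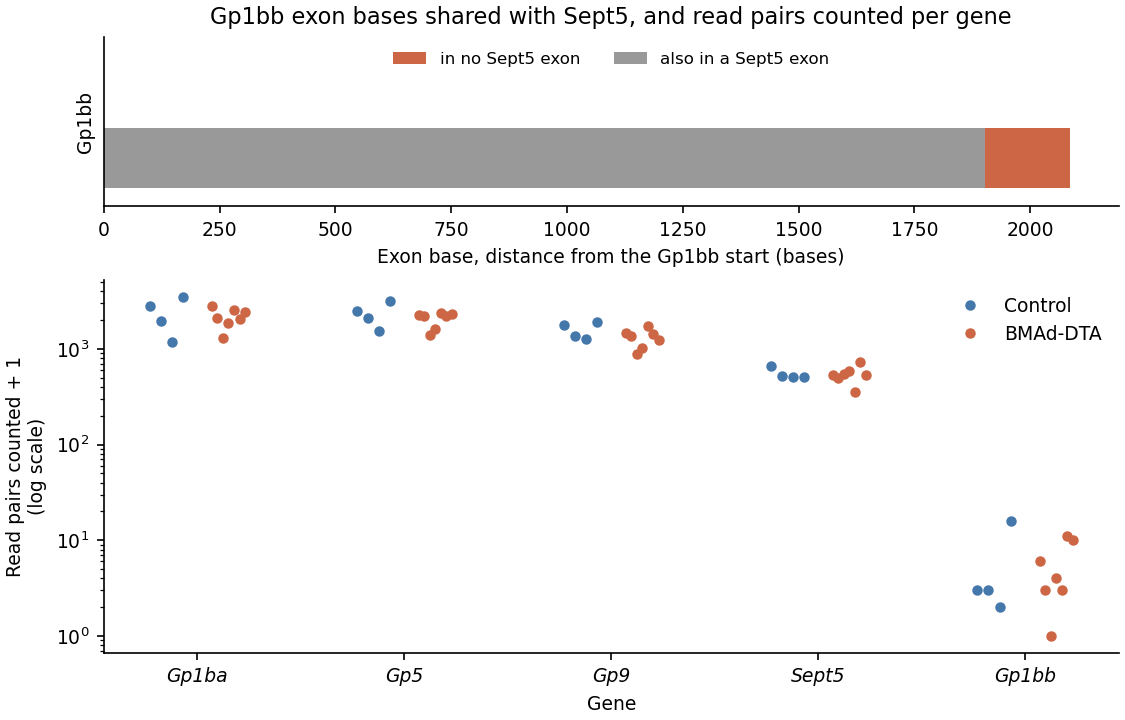
Top, exon bases of Gp1bb that are shared with Sept5 (1902) and not shared (185), drawn to scale by distance along the gene. Bottom, read pairs counted for the genes of the receptor complex and Sept5 in each of the 11 mice (points, log axis of counts + 1), where Gp1bb sits between 0 and 15 counts and Sept5 between 358 and 726.

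Vwf (chromosome 6, 125546774 to 125686679, plus strand), the ligand of that complex, was at 285, 262, 209 and 388 CPM in Controls. It ran from 159 through a median of 238.5 to 317 CPM in BMAd-DTA tibiae, and 2 of the 7 lay below every Control. The fitted difference in Vwf was the lowest of the 8, at -0.25 ± 0.18 (SE) on the log2 scale, with an interval from -0.64 to 0.14. It did not pass, with an adjusted p of 0.536 by edgeR's quasi-likelihood test and an exact permutation p of 0.288.

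Gp6 (chromosome 7, 4363965 to 4397744, minus strand) was at 55.7, 50.7, 32.3 and 64.1 CPM in Controls and from 23.4 to 55.6, median 42.9 CPM, in BMAd-DTA mice. Of the 7 BMAd-DTA mice 5 were below the Control median of 53.2 CPM, with 1 mouse below all Controls and none above the highest. Gp6 differed by -0.25 ± 0.22 (SE), and its adjusted p was 0.633 by edgeR's quasi-likelihood test. Its level spread 2.74-fold between the highest and the lowest of the 11 mice, the widest of the 8 genes.

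Itga2b (chromosome 11, 102453297 to 102470122, minus strand), whose product appears on the earliest megakaryocyte progenitors, was at 392, 331, 259 and 485 CPM in Controls. It ran from 238 to 388 with a median of 368 CPM in BMAd-DTA mice, of which 1 lay below all Controls. The other 6 BMAd-DTA mice lay inside the Control range, and the log2 fold change was -0.14 ± 0.17 (SE; adjusted p = 0.744 by edgeR's quasi-likelihood test). Its beta partner Itgb3 was at 539 ± 114 CPM (SD, n = 4) and 499 ± 90.1 CPM (SD, n = 7).

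Pf4 (chromosome 5, 90772435 to 90773383, plus strand) and Ppbp (90768518 to 90770063, same strand) are neighbours. Pf4 was at 214, 168, 140 and 232 CPM in Controls and from 114 through 170 (median) to 218 CPM in BMAd-DTA mice. Ppbp was at 849, 692, 526 and 1019 CPM in Controls and from 437.5 through 769 (median) to 865 CPM in BMAd-DTA mice. In each gene 2 of 7 BMAd-DTA mice lay below every Control and the rest lay inside the Control range. The log2 fold changes were -0.19 ± 0.18 (SE) for Pf4 and -0.15 ± 0.20 (SE) for Ppbp, with adjusted p of 0.649 and 0.764 by edgeR's quasi-likelihood test.

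None of the 8 genes separated the groups, where 2.81% of all tested genes had groups that did not overlap. As folds, the 95% intervals were wide: the lower bounds ran from 0.605 to 0.705 and the upper bounds from 1.08 to 1.34. The plot of levels shows the overlap gene by gene.

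**Figure D3:**
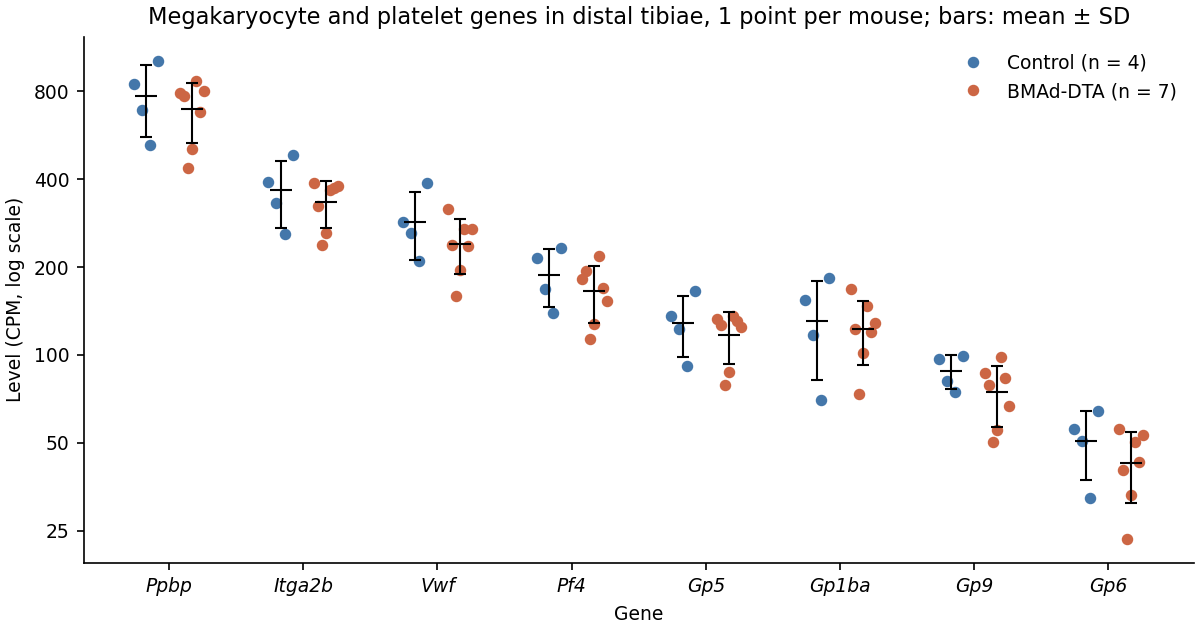
CPM of the 8 tested genes in each mouse (log axis; points are mice, bars group means with SD; 4 Control and 7 BMAd-DTA). The groups overlap for every gene, Ppbp is the highest at 437.5 to 1019 CPM, and Gp6 is the lowest at 23.4 to 64.1 CPM.

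Per kilobase of exon, the secreted chemokines stood above the surface chains. Ppbp was at 712 CPM per kb in Controls and Pf4 at 262, then Gp9 at 99.9, Itga2b at 67.2, Gp5 at 58.8, Gp1ba at 48.2, Vwf at 17.8 and Gp6 at 8.59. The BMAd-DTA means per kb ran in the same order, from 640 for Ppbp to 7.24 for Gp6. Within libraries each gene exceeded the next in 11 of 11 mice, except that Gp5 exceeded Gp1ba in 10 of 11. Over all mice the ranges were apart between Ppbp and Pf4, between Pf4 and Gp9 and between Gp1ba and Vwf, and they overlapped for the other neighbours. The ratio of Ppbp to Pf4 per kb was 2.51 to 2.92 in Controls and 2.57 to 3.48 in BMAd-DTA mice.

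The variation between mice was shared by the whole group of genes. Control replicate 4 was highest for all 9 genes, and BMAd-DTA replicate 3 was lowest for 8 of the 9. Across the 8 tested genes the highest mouse exceeded the lowest by 1.97- to 2.74-fold. After each gene was centred on its group means, all 28 pairs of the 8 genes were positively correlated over the 11 mice. Pearson's r ran from 0.797 to 0.974 with a median of 0.934, and Spearman's rho from 0.691 to 0.964. Benjamini-Hochberg adjusted permutation p over the 28 pairs was 0.00014 to 0.00434 for r and 0.00028 to 0.0324 for rho. The closest pair was Ppbp and Gp5, a chemokine and a receptor chain, at r = 0.974. Gp6 and Vwf followed each other at r = 0.959 and rho = 0.964. For each pair r was also taken without the 2 mice farthest from the median of 1 gene of that pair. The mice left out could therefore differ between pairs. The loosest pair was then Pf4 and Gp6, at r = 0.603, and the other pairs reached up to 0.935. Within the 7 BMAd-DTA mice alone r was 0.778 to 0.982. After the level of pan-hematopoietic genes was removed r was 0.856 to 0.975.

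**Figure D4:**
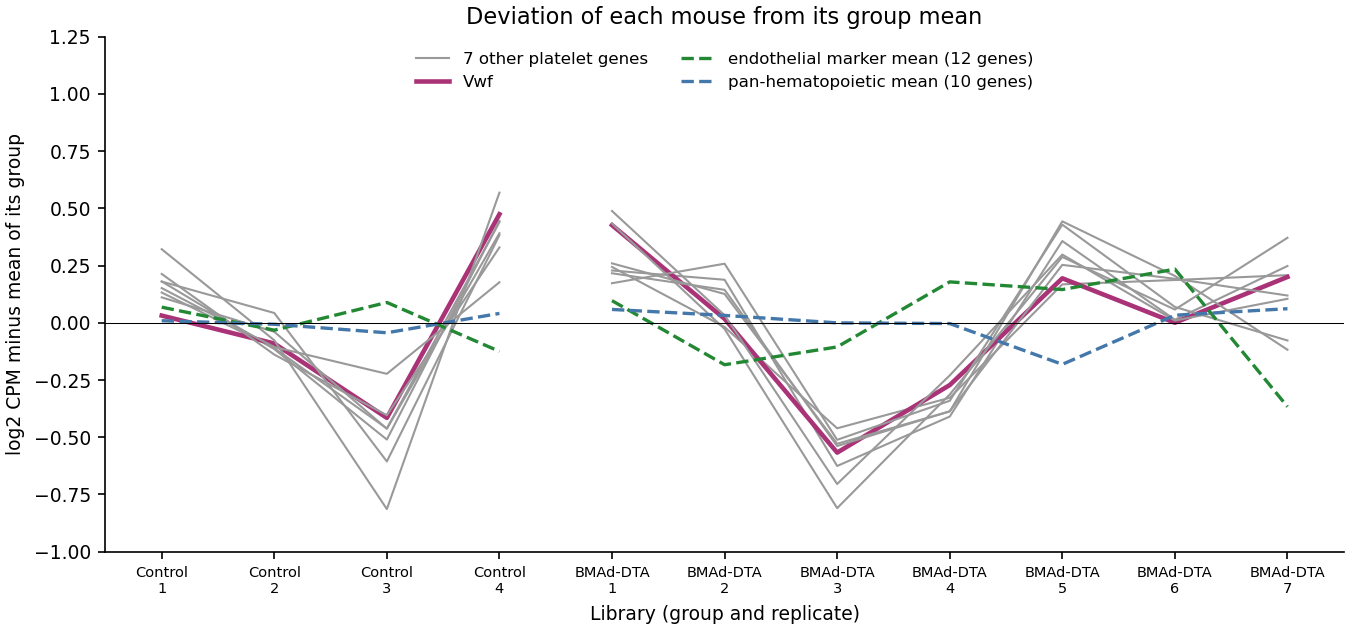
Log2 CPM of each of the 8 tested genes in each mouse minus the mean of its own group (vertical axis; solid lines are genes, Vwf the thick line; mice along the horizontal axis), with the means of endothelial and pan-hematopoietic markers dashed. The gene lines rise and fall together, and within its group Control replicate 4 is highest and BMAd-DTA replicate 3 lowest for all 8.

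Set against the mean of the other 7 tested genes in the same mouse, each gene was far steadier than its own level. The SD over mice of the log2 level was 0.313 to 0.47, and that of the log2 level relative to the others was 0.0716 to 0.181. Gp5 became steadier by the largest factor, 4.67, and Gp9 by the smallest, 1.73. On this relative scale the difference between BMAd-DTA and Control ran from -0.103 in Gp9 to 0.153 in Gp1ba on the log2 scale. Exact permutation p was 0.227 to 0.842 over the 8 genes, and 0.525 to 0.842 after Benjamini-Hochberg adjustment, so no change in the proportions of these transcripts was detected.

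Genes outside the 9 were ranked by how closely they followed the mean of the 7 tested genes other than Vwf over the 11 mice, among the 12968 genes that averaged 50 counts or more. These correlations come from the same libraries and are given as a description. The closest was Alox12, the platelet 12-lipoxygenase, at r = 0.991. Rbpms2 stood at 0.982, Ppif at 0.976 and Tubb1, the platelet beta-tubulin, at 0.976. Slc24a5 (0.973), Mpig6b (0.972), an inhibitory receptor of platelets, Gm45705 (0.969), Diras2 (0.965) and Nrgn (0.965) were also among the first 10. Closest to Vwf were Lims1 (0.975), Gucy1b1 (0.972), Tpm4 (0.969), Dlg2 (0.968) and Casd1 (0.968). Endothelial markers as a list did not follow Vwf, with a correlation of their mean of -0.148. The means of the 5 wider megakaryocyte lists described below correlated with Vwf at 0.519 (regulators) to 0.982 (cytoskeleton). Which cells the Vwf transcripts came from was not tested.

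**Figure D5:**
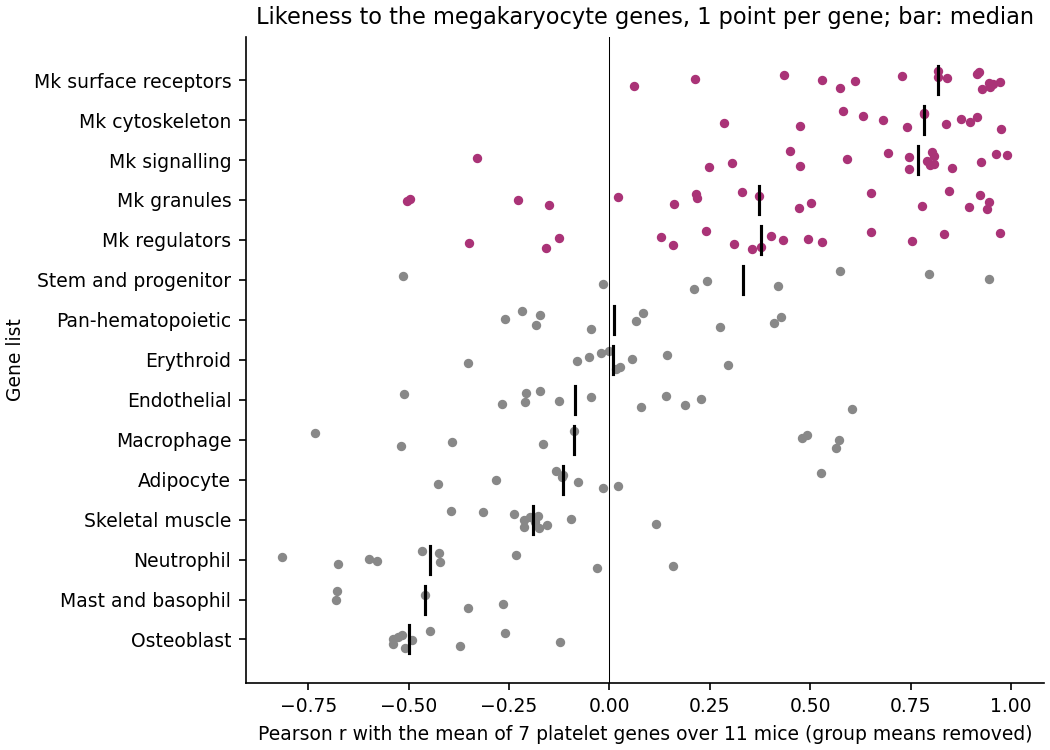
Pearson's r over 11 mice between each gene and the mean of the 7 tested genes other than Vwf, by gene list (points are genes, bars list medians). Megakaryocyte surface receptors have a median of 0.818, and the medians of erythroid, endothelial and pan-hematopoietic genes lie around 0. Single genes run from -0.353 to 0.295 (erythroid), -0.512 to 0.605 (endothelial) and -0.259 to 0.426 (pan-hematopoietic).

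A wider set of 86 megakaryocyte genes in 5 lists was examined, of which 85 were tested; Flna was not analysed here. By edgeR's quasi-likelihood test 0 of the 85 passed the adjusted threshold, and DESeq2 called 4, all lower, where it called 2.64% of its genes lower. At an unadjusted p under 0.05 edgeR had 8 lower and 2 higher of the 85, where 16.4% of all genes reached that level, and limma-voom called 0. The median log2 fold change of the 85 was -0.10. Of the 84 with enough counts to rank, 20 were among the 100 genes most like the platelet genes.

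The list of lineage regulators stood lowest. Of its 18 genes 16 had fitted values below Control, where 49.6% of all genes did, and 7 of them an unadjusted p under 0.05, where 16.4% of all genes did, with a list median of -0.21. The regulators named by DESeq2 were Tal1, Zfpm1, Gata1 and Lmo2, transcription factors that erythroid cells use as well. Gata1 was at 141 ± 39.7 CPM (SD, n = 4) in Controls and 102 ± 14.4 CPM (SD, n = 7) in BMAd-DTA mice, a log2 fold change of -0.46 ± 0.15 (SE). Its adjusted p was 0.144 by edgeR's quasi-likelihood test and 0.0446 by DESeq2. Tal1 had -0.50 ± 0.13 (SE; adjusted p = 0.0860 by edgeR, 0.00752 by DESeq2), Zfpm1 had -0.49 (0.0985 by edgeR, 0.0124 by DESeq2) and Lmo2 had -0.34 (0.117 by edgeR, 0.0344 by DESeq2). Gata1 followed the platelet genes only loosely, at r = 0.354. Nfe2, needed for platelet release, had -0.23 ± 0.11 (SE; adjusted p = 0.336 by edgeR). The extremes of the list were Thpo, encoding thrombopoietin, at -0.62 from only 0.783 and 0.504 CPM, and Sh2b3, an adaptor that restrains cytokine signalling, at 0.10. Neither passed, with adjusted p of 0.348 and 0.445 by edgeR's quasi-likelihood test.

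Erythroid markers were set beside these regulators; their difference from the megakaryocyte lists was not tested. All 10 tested of the 12 listed had fitted values below 0, with a median log2 fold change of -0.54, 9 had an unadjusted p under 0.05 (16.4% of all genes did) and 0 passed adjustment by edgeR (0.0788% of all genes did). Their summed level was 8200, 7429, 6403 and 3990 CPM in Control replicates 1 to 4. In BMAd-DTA mice the sum ran from 4088 to 6492 CPM, with a median of 4551. The part of the erythroid markers in the values of the shared regulators was not tested.

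The other 4 lists lay nearer to 0. Among 17 surface receptors 12 were below 0, with a median of -0.11. P2ry1, a receptor for ADP, was lowest at -0.49 ± 0.18 (SE; adjusted p = 0.180 by edgeR). Jam3, an adhesion molecule, was highest at 0.35 ± 0.13 (SE; adjusted p = 0.195 by edgeR), and its 7 BMAd-DTA values all lay above the 4 Control values. It was the only 1 of the 85 wider genes whose groups did not overlap, where 2.81% of all tested genes had such groups. Jam3 followed the platelet genes little (r = 0.212). Itgb3 had -0.11 and Treml1, a receptor of platelet alpha granules, had -0.21, with adjusted p of 0.777 and 0.686 by edgeR. Among 18 signalling genes 11 were below 0, from Lcp2 at -0.18 to Syk at 0.09. Among 19 granule genes 13 were below 0, from Rab27b, which acts in dense granule release, at -0.32 to the protease inhibitor Serpine2 at 0.42 (adjusted p = 0.183 by edgeR), and Serpine2 did not follow the platelet genes (r = -0.505). Among 13 cytoskeletal genes 11 were below 0, from Plek at -0.23 to Myl9 at 0.03, and Tubb1 had -0.16 ± 0.18 (SE; adjusted p = 0.709 by edgeR).

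Markers of other cells were set beside these values. The summed level of the 9 platelet genes was 1403 to 2636 CPM in Controls and 1174 to 2153 CPM in BMAd-DTA mice. Pan-hematopoietic genes summed to 5784 to 5927 CPM and 5033 to 6168 CPM, with a list median log2 fold change of 0.01. Endothelial genes, which bear on Vwf, summed to 1153 to 1293 CPM in Controls and 904 to 1380 CPM in BMAd-DTA mice, and 9 of 12 had fitted values below 0. Skeletal muscle genes varied from 43.4 to 1397 CPM in Controls and 51.9 to 1109 CPM in BMAd-DTA mice, and the mean of the list correlated with that of the platelet genes at r = -0.167. Osteoblast genes summed to 2902 to 12940 CPM in Controls and 15310 to 35990 CPM in BMAd-DTA mice. Because CPM is a share of the library, the part of these other shifts in the platelet gene values was not tested beyond the covariates and scalings listed in the closing section.

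The size of the fitted differences rested in part on single mice. Without Control replicate 4 the median log2 fold change of the 8 genes was -0.035 and 3 of them were above 0, at 0.0090 in Ppbp, 0.025 in Itga2b and 0.11 in Gp1ba. Without Control replicate 3 the median was -0.30. Without BMAd-DTA replicate 3 it was -0.094, with Gp1ba at 0.0040. No adjusted p in edgeR's quasi-likelihood fits that left out 1 mouse was below 0.286 for any of the 8 genes.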

How the data were processed

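RNA from whole distal tibiae was sequenced as strand-specific paired-end mRNA libraries on DNBSEQ. According to the submitters' notes and methods, the authors checked reads with FastQC 0.11.9 and aligned them with STAR under default parameters to mm10, and they used DESeq2. The deposited values are raw gene counts from the authors. The merged table holds 22600 genes, and the per-library tables list 55401. For the 22600 genes the merged values equal the read-strand column of each per-library table (0 values differed). Library totals over the merged table were 16969529 to 18637663 counts. Replicate pairs differed by a chi-square per gene of 18.3 to 61.6, so none was a duplicate. The labels name nothing beyond the mouse that separates the replicates, whose numbers follow the order of the sample records.

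Genes passing filterByExpr (16496) were tested, Control against BMAd-DTA, by edgeR 4.0.16 quasi-likelihood with TMM scaling and Benjamini-Hochberg adjustment over all genes (R 4.3.3). The edgeR test is used where the study used DESeq2, because it is the standard here for deposited counts; DESeq2 1.42.0 and limma 3.58.1 (voom) were alternatives. CPM used the TMM-scaled library size, log2 CPM a prior count of 2, and exact two-sided permutation tests over mice served single genes. Correlations used values centred on group means and 100000 permutations within groups. The fits were tested on simulated data.

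The members and lists were chosen with earlier results of these data known. Genes named are the 9, the highest and lowest fold change of each wider list, any gene passing the threshold, Tubb1, Treml1, Itgb3, Gata1, Nfe2 and Thpo, and the closest 10 genes to the platelet genes and 5 to Vwf; 1 gene that the rule names is not reported here. Zfpm1, Tal1, Lmo2, the relative levels and the order per kilobase were added after values were seen. Because Gp1bb was not testable, 28 pairs were correlated in place of 36, and the mean of 7 genes stands for that of 8. Exon lengths and positions are from GENCODE M21, in which all 9 gene identifiers were found with their version. Alternatives were other scalings, filters, covariates and tools, and leaving out each mouse.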

Additional observations from a re-analysis of the deposited data

Results flagged for a closer look

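Gp1bb in Control replicate 4, at 0.778 CPM, stood far above the other 3 Controls for its group size. The value rests on 15 counts against 2, 2 and 1 in the other Controls, in a gene whose exons are 92.9% shared with other genes on its strand. The same mouse was the highest of all 11 for the other 8 genes, in none of which did it stand apart by this measure. It was applied to 18 groups (9 genes in 2 genotypes), and chance marks about 1 group in 20.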

How the results depend on the processing

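The count of platelet genes past the threshold was 0 in every setting run, and their median log2 fold change stayed below 0, from -0.30 without Control replicate 3 to -0.035 without Control replicate 4 when 1 mouse was left out and from -0.21 to -0.14 in the other settings. Over all genes the count past the threshold, 13, was 20 under DESeq2-type size factors in edgeR, 20 by limma-voom, 845 by DESeq2, 3 with a muscle covariate and 3 when scaled on pan-hematopoietic genes. It ran from 0 to 292 when 1 mouse was left out, with 292 without Control replicate 3, 89 without Control replicate 4, 8 without BMAd-DTA replicate 3, 3 without BMAd-DTA replicate 4, and 0 by edgeR without Control replicate 1 or 2 or BMAd-DTA replicate 1 or 6 (1784, 2239, 2626 and 2528 genes at an unadjusted p under 0.05). Of the 85 wider megakaryocyte genes DESeq2 called 4, and leaving out 1 mouse gave 0 to 2, with Jak2 (adjusted p = 0.0497) and P2ry1 (0.0492) passing by edgeR without Control replicate 3. The cause of these differences was not tested. Single genes changed sign only when a mouse was left out: without Control replicate 4, Ppbp was 0.0090, Itga2b 0.025 and Gp1ba 0.11, and without BMAd-DTA replicate 3, Gp1ba was 0.0040. No paired analysis was possible because the labels give no replicate numbers that link Control and BMAd-DTA mice. The 8 tested genes had 413 to 19661 counts per library, and Gp1bb had too few to test.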

Other observations

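Markers of other marrow populations were set against the rise and fall of the platelet genes between mice, as a description over shared libraries with no test. The median r with the platelet gene mean over 11 mice was 0.00994 for pan-hematopoietic genes, 0.00769 for erythroid genes, -0.0861 for endothelial genes, -0.0889 for macrophage genes and -0.116 for adipocyte genes, beside -0.00421 over all ranked genes. Neutrophil genes had a median of -0.446, mast cell and basophil genes -0.46 and osteoblast genes -0.50. The 8 stem and progenitor markers had a median of 0.331 and ran from -0.515 in Hlf to 0.946 in Slamf1 (CD150). Between these lay Flt3 at -0.016, Kit at 0.211, Procr at 0.244, Cd34 at 0.419, Ly6a at 0.573 and Mycn at 0.796. The mean of the 9 tested genes of this list correlated with the platelet gene mean at r = 0.858. These markers were named after their values were seen. Within the megakaryocyte lists the receptors (median 0.818), cytoskeletal genes (0.783) and signalling genes (0.769) had higher medians than the granule genes (0.373) and regulators (0.377).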
